A study of Rattus norvegicus with 12 samples.

Results

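The genes examined here encode the core of the exon junction complex and the UPF proteins of nonsense-mediated mRNA decay. They were taken as every probe of the raw signal table whose symbol, without the suffix that marks a predicted gene, was one of 12 names: Rbm8, Rbm8a, Magoh, Magohb, Ddx48, Eif4a3, Casc3, Upf1, Rent1, Upf2, Upf3a or Upf3b. This found 6 of the 22226 probes, 1 each for Rbm8a, Magoh, Casc3, Upf1, Upf2 and Upf3a. The names were chosen by the difference of Rbm8a (listed as Rbm8_predicted), which was among the highest between the immunoprecipitates, so that difference is given as a description and without a test. Upf1 is listed as Rent1, with the definition regulator of nonsense transcripts 1. The names Magohb, Eif4a3 (Ddx48) and Upf3b were not matched by a symbol in the table. A probe listed by gene number alone is Upf3b by that number in the reference gene table, and it is described beside the 6 members.

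Staufen2 binds double-stranded RNA and is a component of RNA transport granules in neurons, and the study asked what its ribonucleoprotein particles are made of. Extracts of whole brains from Sprague-Dawley rat embryos of embryonic day 17 to 18 were immunoprecipitated either with a rabbit polyclonal antibody against Staufen2 (6 arrays) or with rabbit preimmune antibody (6 arrays). No genetic change or drug treatment is labelled in either group, and the tissue label reads P18 embryonic brain where the protocols give E17-E18. RNA from the washed beads was amplified, labelled with biotin and put on Illumina bead arrays for rat. The source brains of each array are not labelled. The p-values therefore reflect only how far the arrays scatter, and part of that scatter may be technical. No array of unfractionated brain RNA was used here, so the values compare the antibodies and say nothing of each transcript's share in the brain. In whole brain extract, more cells that express a gene and more of its RNA per cell cannot be told apart. The Staufen2 array whose title has no number is replicate 0 below, the other Staufen2 arrays are replicates 1 to 5, and the preimmune arrays are replicates 1 to 6.

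The exon junction complex is laid down on mRNA upstream of exon-exon junctions during splicing and travels with the mRNA to the cytoplasm. Its core is a heterodimer of RBM8A (also called Y14) and MAGOH, the helicase EIF4A3 and CASC3 (also called Barentsz or MLN51). Where a ribosome stops upstream of a remaining complex, UPF3 and UPF2 link it to the helicase UPF1, and the mRNA is degraded by nonsense-mediated decay. In mammals STAU1, the paralog of Staufen2, can recruit UPF1 to mRNAs with double-stranded sites in their 3' ends, a route called Staufen-mediated decay. The arrays measured the mRNAs that encode these proteins, not the proteins.

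The arrays of the groups differed in how much RNA they reported. A probe is called detected where its deposited detection p-value was under 0.05. The detected share of probes was 45.4% to 48.8% on Staufen2 arrays and 11.6% to 34.8% on preimmune arrays, with preimmune replicates 6 and 2 lowest at 11.6% and 17.6%. Mean raw signal per array lay between 340 and 516 in Staufen2 immunoprecipitates and between 69.2 and 129 in preimmune ones. Among the cell type markers, 7 of 7 measured neuron markers and 8 of 8 measured neural progenitor markers were detected on all Staufen2 arrays. The same held for 4 of 6 red blood cell, 1 of 4 endothelial, 2 of 5 microglia and 2 of 4 oligodendrocyte markers. All preimmune arrays detected 4 neuron, 3 neural progenitor, 4 red blood cell, 1 endothelial, 0 microglia and 0 oligodendrocyte markers. The summed raw signal of the 6 red blood cell markers ran from 3712 to 16686 on Staufen2 arrays and from 577 to 7032 on preimmune arrays, and its part in the results below was not tested. Raw signals of the groups did not overlap, with all Staufen2 arrays higher, for 91.1% of the 9136 tested probes, which were those detected on at least 6 of the 12 arrays.

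Rbm8a, which encodes the partner of MAGOH in the complex core, had the highest Staufen2 minus preimmune difference of the members, and was chosen for it. Its raw signal on the Staufen2 arrays was 13413, 7731, 9445, 11131, 12551 and 12809 for replicates 0 to 5, and on the preimmune arrays 155, 84.9, 211, 182, 99.9 and 67.5 for replicates 1 to 6. All Staufen2 arrays were bright, and the groups did not overlap, as for 91.1% of tested probes. Preimmune replicate 6 was the only array on which the probe was not detected. The means were 11180 ± 2210 on Staufen2 arrays and 133 ± 57.8 on preimmune arrays (SD, n = 6 each). The ratio of these means was 83.8, and 174 after each array's background was subtracted. Ordered by raw signal, the Rbm8a probe lay between place 75 and place 116 from the brightest of 22226 on Staufen2 arrays and between places 1685 and 11050 on preimmune arrays. A place in this order needs no scaling between arrays, but it mixes probe affinity with transcript amount.

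**Figure D1:**
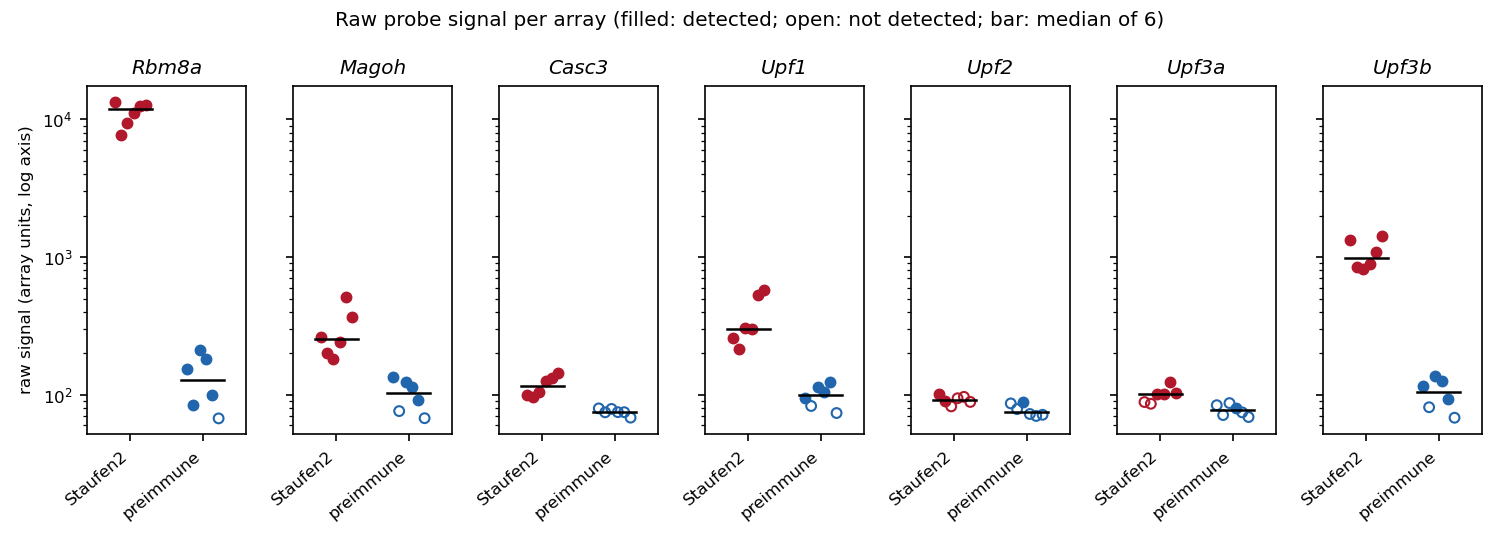
Raw signal (array units, log axis) of the 6 member probes and of Upf3b on each of the 6 Staufen2 and 6 preimmune arrays, with filled points where the probe was detected, open points where it was not, and a bar at the group's median. Rbm8a lies between 7731 and 13413 on the Staufen2 arrays and between 67.5 and 211 on the preimmune arrays, while Upf2 and Upf3a overlap between the groups.

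After background correction and quantile normalization, which gives every array the same distribution of values, Rbm8a averaged 11.21 ± 0.12 on the log2 scale in Staufen2 immunoprecipitates and 7.17 ± 1.36 in preimmune ones (SD, n = 6 each). The difference was 4.04 ± 0.48 (SE of the limma fit), number 3 in order of difference among the 9136 tested probes. On each Staufen2 array the normalized value was between 11.06 and 11.41. On the preimmune arrays it was 8.05, 6.70, 8.08, 8.07, 7.48 and 4.62 for replicates 1 to 6, so most of the spread lay in the preimmune group. Without preimmune replicates 2 and 6 the difference was 3.49, and over the leave-one-out fits it ran from 3.68 to 4.23. Within the first run of array codes that head the file's columns (4 arrays per group) the difference was 3.65, and within the second run (2 arrays per group) it was 4.67. After plain background subtraction and median centring, over the 4541 probes detected on all 10 arrays that remain without preimmune replicates 2 and 6, Rbm8a was higher by 3.79 ± 0.18 (SE), number 5 in order among them. These values describe the contrast that chose the gene and support no further statement.

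The Rbm8a signal moved with the detected share among the preimmune arrays. Over these 6 arrays Spearman's rho between raw Rbm8a signal and detected share was 0.94, and over the 6 Staufen2 arrays, which differ little in detected share, it was 0.37. Both are given as descriptions, since each array's overall signal enters both measures. For Magoh the same values were 0.77 over preimmune arrays and -0.14 over Staufen2 arrays, and for Upf1 they were 0.60 and -0.03. The part of RNA yield in the group differences was not tested.

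**Figure D2:**
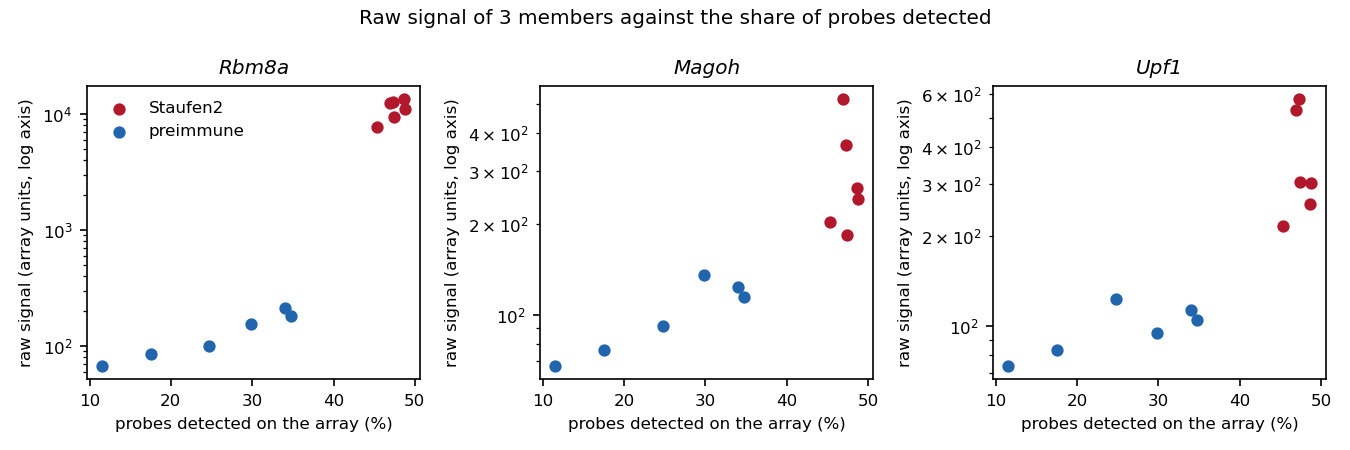
Raw signal (array units, log axis) of Rbm8a, Magoh and Upf1 against the percentage of probes detected on the same array, with 1 point per array and Staufen2 and preimmune arrays in separate colours. The Staufen2 arrays lie between 45.4% and 48.8% detected and the preimmune arrays between 11.6% and 34.8%, so the groups share no range of detected share.

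Magoh, which encodes the partner that forms the heterodimer with RBM8A, had a normalized difference close to 0. Its raw signal was 263, 203, 183, 242, 517 and 365 on Staufen2 replicates 0 to 5, and 135, 76.2, 123, 114, 91.5 and 67.7 on preimmune replicates 1 to 6. The raw signals did not overlap, as for most tested probes, and detection was reached on every Staufen2 array and on 4 preimmune ones. Normalized values were 6.31 ± 0.38 in Staufen2 immunoprecipitates and 6.29 ± 1.34 in preimmune ones (SD, n = 6 each), with preimmune replicates 2 and 6 at 4.54 and 4.66 and the other 4 preimmune arrays between 6.84 and 7.68. The difference was 0.02 ± 0.51 (SE, n = 6 per group; limma, adjusted p = 0.979). Magoh depends on preimmune replicates 2 and 6: without both it was lower in Staufen2 immunoprecipitates by a difference of -0.97 (adjusted p = 0.00902), with array weights by -0.97 (adjusted p = 0.00105), and without scaling between arrays it was higher by 2.42 (adjusted p = 8.6e-06).

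Casc3, which encodes the core protein that joins the complex in the cytoplasm, was dim. Its raw signal was 99.7, 95.8, 106, 126, 132 and 145 on Staufen2 replicates 0 to 5, and 79.7, 74.7, 79.0, 74.9, 74.8 and 68.3 on preimmune replicates 1 to 6. It was detected on all 6 Staufen2 arrays and on 0 preimmune arrays, so its preimmune value is only a bound. Normalized values were 5.05 ± 0.20 in Staufen2 immunoprecipitates and 4.64 ± 0.24 in preimmune ones (SD, n = 6 each), and the Staufen2 mean lay below the mean of the lowest normalized values among detected probes of the preimmune arrays (5.28), which leaves no fold to give. The fitted difference was 0.41 ± 0.14 (SE, n = 6 per group; limma, adjusted p = 0.0209), where the median over all tested probes was 0.32. Since the probe passed the detection filter only through the Staufen2 arrays, this p-value supports no direction. Casc3 is thus 0.09 above that median. The call turned with median centring (-1.57, adjusted p = 3.25e-06) and ended without a detection filter (0.41, adjusted p = 0.0915). The size also followed the estimate of background, and was 0.07 (adjusted p = 0.0469) with all detection p-values and -0.05 (adjusted p = 0.44) where in addition the tested probes alone were normalized.

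Upf1, the helicase at the centre of nonsense-mediated and Staufen-mediated decay, was not called. Raw signal was 257, 217, 304, 301, 529 and 576 on Staufen2 replicates 0 to 5, and 95.0, 83.0, 114, 105, 123 and 73.8 on preimmune replicates 1 to 6. The groups did not overlap on the raw scale, as for 91.1% of tested probes. Staufen2 replicates 4 and 5, the Staufen2 arrays of the second code run, were the brightest. Normalized values were 6.57 ± 0.34 in Staufen2 immunoprecipitates and 6.84 ± 0.80 in preimmune ones (SD, n = 6 each), with preimmune replicate 5 highest of all 12 arrays at 8.31. The difference was -0.27 ± 0.37 (SE, n = 6 per group; limma, adjusted p = 0.576). Without preimmune replicate 5 it was 0.03 (adjusted p = 0.94), and without scaling between arrays 2.86 (adjusted p = 5.58e-07). The median of all tested probes without scaling was 2.71.

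Upf2 and Upf3a, which encode the adaptors between the junction complex and UPF1, were at the edge of detection and did not pass the detection filter. Upf2 raw signal was 101, 90.6, 82.4, 94.5, 96.7 and 88.8 on Staufen2 replicates 0 to 5, and 86.6, 78.8, 88.7, 72.6, 70.3 and 71.7 on preimmune replicates 1 to 6. It was detected on 2 Staufen2 arrays and 1 preimmune array, and the groups overlapped. Upf3a raw signal was 88.7, 86.1, 101, 102, 125 and 103 on Staufen2 replicates 0 to 5, and 84.1, 71.3, 87.1, 79.6, 74.6 and 69.0 on preimmune replicates 1 to 6. It was detected on 4 Staufen2 arrays and 1 preimmune array, and its groups overlapped as well. Fitted without the detection filter, Upf2 was at -0.49 (limma, adjusted p = 0.158) and Upf3a at -0.16 (adjusted p = 0.538). Neither was called in that fit, and signals this close to background limit what it could find.

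Upf3b, a paralog of Upf3a that also binds the exon junction complex, was measured by the probe listed by gene number. Its raw signal on the Staufen2 arrays had a lowest value of 825, a median of 992 and a highest value of 1423, and on the preimmune arrays 68.2, 104 and 137. The groups did not overlap on the raw scale or after normalization, and detection was reached on every Staufen2 array and on 4 preimmune ones. Raw signals lie apart in this direction for 91.1% of tested probes, and normalized values for 20.9%. Normalized values were 7.94 ± 0.20 in Staufen2 immunoprecipitates and 6.51 ± 1.04 in preimmune ones (SD, n = 6 each), a difference of 1.43 ± 0.41 (SE, n = 6 per group; limma, adjusted p = 0.00915). The call held in each of the 12 leave-one-out fits, with differences from 1.17 to 1.62. It was smaller with array weights, at 0.68 (adjusted p = 0.00186), and without preimmune replicates 2 and 6, at 0.90 (adjusted p = 0.000678). On percentile ranks the call was lost, at 12.6 percentage points (adjusted p = 0.0692), as it was among the 4 arrays of the second run, at 1.83 (adjusted p = 0.204). The difference between the Upf3b and Upf1 differences was not tested.

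Of the 6 members, 4 passed the detection filter, and of the 3 of these that were tested (Magoh, Casc3 and Upf1) 1 was called higher and 0 lower in Staufen2 immunoprecipitates. Among the 9136 tested probes, 32.8% were called higher and 16.9% lower, so this count lies near the background. Casc3 passed the filter only through its Staufen2 arrays, while Magoh and Upf1 were also detected on 4 preimmune arrays each, so the 1 call is no support for a direction. Of the other probes whose description relates them to the members or to their pathway, LOC499250, similar to the kinase SMG-1, had a raw signal of 208 ± 56.3 in Staufen2 immunoprecipitates (SD, n = 6), where all 6 arrays detected it, and was detected on 2 preimmune arrays. Its raw signal in preimmune immunoprecipitates was 78.1 ± 7.89 (SD, n = 6). The normalized difference was 1.01 ± 0.23 (SE; limma, adjusted p = 0.00214), and it was -0.24 with median centring (adjusted p = 0.39) and not called in the second code run (0.91, adjusted p = 0.0653). LOC499250 too passed the filter through its Staufen2 arrays, so this p-value supports no direction. LOC499251 and LOC499252, also described as similar to SMG-1, were detected on 0 of 12 arrays. A probe described as similar to RBM8 (LOC365000) had raw signals that overlapped between the groups and a normalized difference of -0.61 ± 0.15 (SE; limma, adjusted p = 0.0035). Without scaling between arrays it was at 0.68 (adjusted p = 0.000231), below the median of 2.71 over all tested probes in that setting. Its call was lost in the second code run (-0.36, adjusted p = 0.383). The other such probe, LOC502671, was detected on 0 of 12 arrays. Probe sequences were not used here, so whether the Rbm8a probe also binds RNA of such related loci was not tested.

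**Figure D3:**
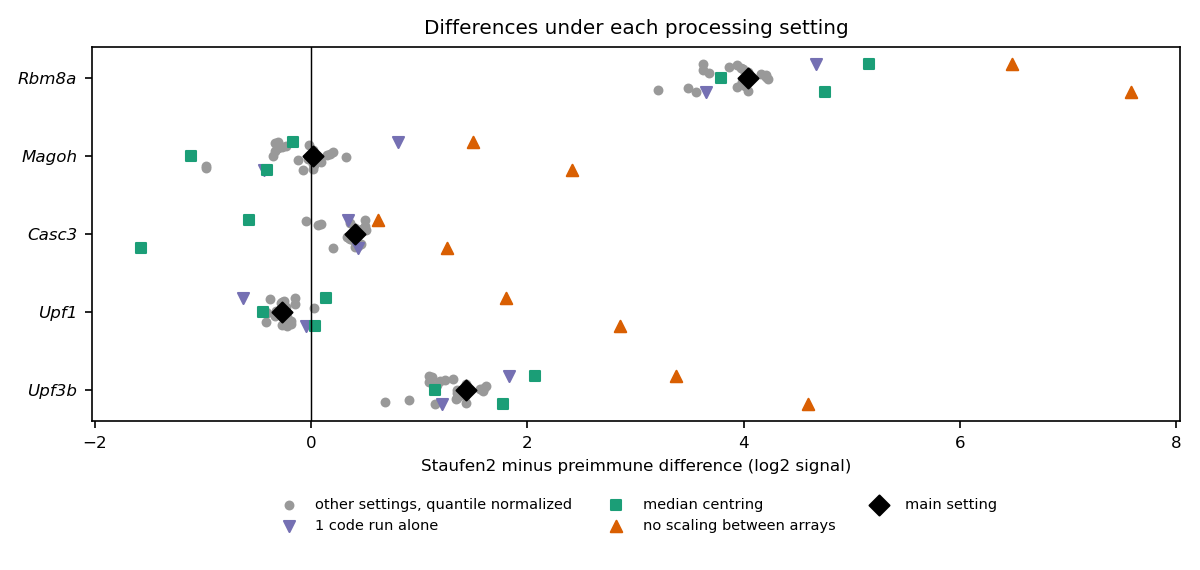
Staufen2 minus preimmune difference (log2 signal) of the 4 members that passed the detection filter and of Upf3b under each processing setting on a log2 scale, with 1 point per setting, the main setting as a black diamond and a line at 0. Rbm8a, which was chosen for this difference, stays above the other genes in the plot under each kind of setting, at 4.04 in the main one. Magoh, Casc3 and Upf1 have settings on both sides of 0.

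The wider machinery was counted in 7 lists, with 1 probe per gene (that with the highest mean). Of 66 tested genes other than Rbm8a, 20 (30.3%) were called higher and 10 (15.2%) lower in Staufen2 immunoprecipitates, against 32.9% and 16.6% of the 9027 genes tested in all. The 20 include 4 genes detected on 0 preimmune arrays (Casc3, Smg6, Parn and Dis3) and others detected on few, such as Smg9 and Xrn1. These could pass the filter only through the Staufen2 arrays, so the count supports no direction. The shares lay close to those of all genes. None of these 66 genes had a difference above that of Rbm8a in the main setting. Rbm8a was chosen for a difference among the highest, so this comparison supports no statement about the lists. The lower calls moved with the setting. They were 18 of the 66 (27.3%) with median centring, against 39.1% of all genes. Without preimmune replicates 2 and 6 they were 21 (31.8%), against 25.5% of all genes. Each gene described below as relatively lower was higher without scaling between arrays. In that setting the median of all tested probes was 2.71 and 0 probes were called lower. Of the 14 called genes that are named from the lists below by the smallest adjusted p, 11 lost their call in the second code run, with 2 arrays per group. Over all 9027 tested genes, 12.4% were called higher and 0.8% lower in that run, against 32.9% and 16.6% in the main setting.

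The SMG list holds the kinase complex and nucleases that act after UPF1. Of 3 tested genes 2 were called higher and 0 lower, against 32.9% and 16.6% of all tested genes. The median difference was 0.61, against 0.32 over all tested genes. Smg8, which like Smg9 regulates the SMG1 kinase, was not called at 0.49 ± 0.49 (SE; adjusted p = 0.433), and stood at 2.93 without scaling (adjusted p = 1.85e-07) and at -0.42 without preimmune replicates 2 and 6 (adjusted p = 0.0621). After background subtraction without these replicates it was called lower, at -0.49 (adjusted p = 0.0172). Smg9, another regulator of that kinase, had a fitted difference of 0.89 ± 0.22 (SE; adjusted p = 0.0033). This call turned with median centring (-0.51, adjusted p = 0.0201) and was lost on percentile ranks (27.95 percentage points, adjusted p = 0.0661). Detected on 2 preimmune arrays, Smg9 passed the filter through the Staufen2 arrays, so its p-value supports no direction. Smg6, the endonuclease of the pathway, had a fitted difference of 0.61 ± 0.14 (SE; adjusted p = 0.00246) but was detected on 0 preimmune arrays, at raw signals that left no fold to give as a bound. It too passed the filter only through the Staufen2 arrays, so its p-value supports no direction, and it stood at -1.31 with median centring (adjusted p = 2.92e-05).

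The list of junction complex partners and export factors had 16 tested genes, with a median difference of 0.32. Of these 3 were called higher and 2 lower, against 32.9% and 16.6% of all tested genes. Ncbp2, the cap-binding subunit of the nuclear cap-binding complex, was detected on all 12 arrays, with raw signals of 4185 ± 1216 in Staufen2 immunoprecipitates and 187 ± 108 in preimmune ones (SD, n = 6 each). Its difference was 1.18 ± 0.23 (SE; adjusted p = 0.000748). Thoc7, a subunit of the THO complex of transcription and export, was relatively lower by -0.95 ± 0.22 (SE; adjusted p = 0.00222), although its raw signal was 2364 in Staufen2 immunoprecipitates and 381 in preimmune ones, and it stood at 0.59 with median centring (adjusted p = 0.271). The call was also lost on percentile ranks (-2.08 percentage points, adjusted p = 0.109) and after background subtraction limited to probes that all 12 arrays detected (-0.20, adjusted p = 0.503). Cwc22, the splicing factor that delivers EIF4A3 to the spliceosome, was relatively lower by -1.13 ± 0.29 (SE; adjusted p = 0.0041), with raw signals of 140 in Staufen2 immunoprecipitates and 91.5 in preimmune ones, and at 1.15 without scaling.

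In the deadenylation list 7 of 14 tested genes were called higher and 1 lower, against 32.9% and 16.6% of all tested genes, with a median difference of 0.73. The 7 include Parn, which the preimmune arrays did not detect, and Cnot6, which 2 of them detected. Both passed the filter through the Staufen2 arrays, so the count supports no direction, and the list as a whole was not tested. Btg1, an antiproliferative protein that binds the deadenylase CNOT7, had raw signals of 18550 ± 3501 in Staufen2 immunoprecipitates and 589 ± 462 in preimmune ones (SD, n = 6 each) and a difference of 1.36 ± 0.13 (SE; adjusted p = 1.69e-06), a call lost on percentile ranks (0.64 percentage points, adjusted p = 0.563). Cnot7, a catalytic subunit of the CCR4-NOT deadenylase, was higher by 1.38 ± 0.23 (SE; adjusted p = 0.000223). Both were detected on all 12 arrays. Parn, the poly(A)-specific ribonuclease, was detected on all Staufen2 arrays and 0 preimmune arrays. On the normalized scale its Staufen2 mean was 1.44-fold the preimmune bound, and its measured log2 means differed by 1.44 (adjusted p = 4.5e-05). It passed the detection filter only through the Staufen2 arrays, so its p-value supports no direction, and it was at -0.16 with median centring (adjusted p = 0.637). The bound takes, on each preimmune array, the lowest normalized value among detected probes.

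Of 14 tested decapping and 5'-3' decay genes 1 was called higher and 3 lower, against 32.9% and 16.6% of all tested genes, with a median difference of -0.20. Lsm3 and Lsm4, subunits of the Sm-like rings that bind RNA ends, were relatively lower by -1.29 ± 0.22 and -0.70 ± 0.24 (SE; adjusted p = 0.000257 and 0.0251). Both directions flipped with median centring, to 0.20 and 0.47 (adjusted p = 0.687 and 0.203), and the Lsm4 call ended without Staufen2 replicate 0, 2 or 3, at -0.62, -0.64 and -0.67 (adjusted p = 0.0636, 0.0594 and 0.0522), and after background subtraction limited to probes that all 12 arrays detected (-0.18, adjusted p = 0.458). Xrn1, the cytoplasmic 5'-3' exonuclease, had a fitted difference of 1.10 ± 0.24 (SE; adjusted p = 0.00159), and was at -0.18 with median centring (adjusted p = 0.448). With 1 preimmune array detecting it, it passed the filter through the Staufen2 arrays, so its p-value supports no direction. The 2 probes of Ddx6, a helicase of decapping granules named after its values were seen, disagreed in call (1.97, adjusted p = 0.0994, and 2.19, adjusted p = 5.92e-05).

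Of the 15 tested exosome and 3'-5' decay genes 5 were called higher and 4 lower, against 32.9% and 16.6% of all tested genes, with a median difference of 0.36. The 5 include Dis3, Exosc6 and Skic3, detected on 0, 1 and 2 preimmune arrays. These passed the filter through the Staufen2 arrays, so the count supports no direction. Exosc2, a cap subunit of the RNA exosome, had raw signals of 2367 ± 702 in Staufen2 immunoprecipitates and 97.4 ± 22.2 in preimmune ones (SD, n = 6 each) and a difference of 2.37 ± 0.43 (SE; adjusted p = 0.000399), a call lost on percentile ranks (20.7 percentage points, adjusted p = 0.115). Exosc5, a subunit of the exosome ring, was relatively lower by -1.40 ± 0.26 (SE; adjusted p = 0.000434), with raw signals of 234 in Staufen2 immunoprecipitates and 114 in preimmune ones. Genes of the same particle thus lay on both sides of the median of all genes. Dis3, a catalytic subunit of the exosome, was detected on 0 preimmune arrays. On the normalized scale its Staufen2 mean was 1.09-fold the preimmune bound, and its measured log2 means differed by 1.01 (adjusted p = 2.5e-05). Like Parn it passed the filter only through the Staufen2 arrays, so its p-value supports no direction, and it was at -0.83 with median centring (adjusted p = 0.00177).

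**Figure D4:**
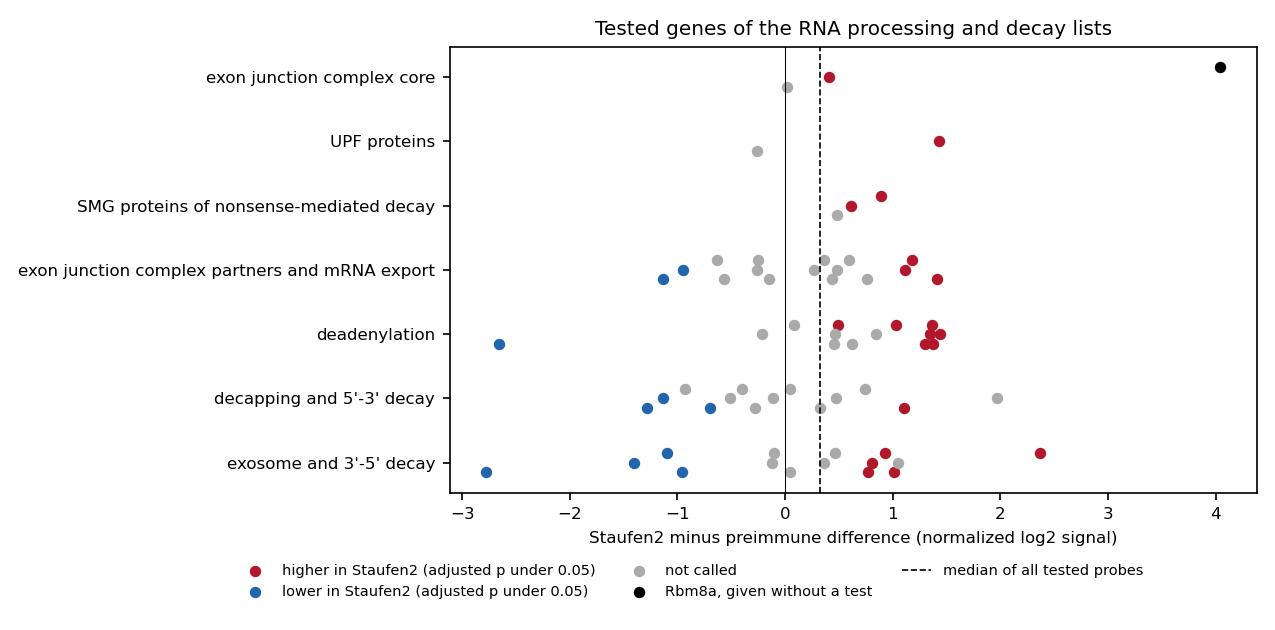
Staufen2 minus preimmune difference (normalized log2 signal) of each tested gene in the 7 lists, 1 row per list and 1 point per gene, coloured by the limma call, with Rbm8a in black and without a test and a dashed line at the median of all tested probes, 0.32. Rbm8a lies at 4.04 and the other 66 genes lie between -2.77 and 2.37.

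The 5 tested genes with an official symbol whose normalized values followed Rbm8a most closely over the 12 arrays were Rbm18, Rab5b, Dnal4, Bak1 and Dbndd1, with Pearson's r between 0.989 and 0.994. After each group's mean was subtracted r was 0.97, 0.96, 0.97, 0.96 and 0.93. Their own differences were 3.07, 2.75, 3.12, 3.20 and 2.89. The correlations are descriptions over 12 arrays that share the split into groups and the low signal of preimmune replicates 2 and 6.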

How the data were processed

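The authors deposited 1 raw signal intensity per probe and array on a linear scale, per the file headers, with no background correction or scaling visible in it. They also deposited a detection p-value per probe and array. These columns carry array codes that no label explains. Each was assigned to the neighbouring signal column, an assignment checked by sorting probes by signal: detection p broke the order 205 to 268 times within an assigned pair of columns and at least 6744 times in any other pair. The authors' deposited log2 values equal the log2 of the raw signal within 0.0001. The submitters' processing notes name RMA, without a version; the array build is not stated. Another 12 columns, of bead standard errors, were left aside. Symbols were updated through a RefSeq gene table (GRCr8), for names only (8025 probes by symbol, 5393 by gene number, 3407 by an older symbol, 5204 kept as listed).

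Signals were corrected with limma's normexp model (limma 3.58.1, R 4.3.3) with an offset of 16, the background being estimated from the detection p-values, and quantile normalized. The 149 probes whose detection p was above 0 at a signal above the 5th percentile of the probes with p of 0, on any array, were left out of the background estimate, since with them the estimated background SD on Staufen2 arrays was 84.8 to 173, and 6.37 to 8.89 without them. This step was revised after results for the members had been seen. In all 5 versions of it were run, and the other 4 are among the added alternatives. Probes detected on at least 6 of 12 arrays were fitted with lmFit, then eBayes with trend, giving two-sided p-values adjusted by Benjamini-Hochberg over all 9136 (threshold 0.05). Every adjusted p comes from these limma fits. The limma fit, without the background correction and normalization before it, was tested on simulated data.

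Signal over background stands for depth here, and 6 arrays per group limit the precision. Replicate numbers 1 to 5 occur in both groups, but the correlation of same-numbered arrays' deviations from the group means ran from -0.10 to 0.26, so the numbers were not taken to pair the samples. Number 4 stands in different code runs in the groups. A pairing by neighbouring array codes, such as Staufen2 replicate 4 with preimmune replicate 5, was not tested, so the arrays may still be paired. The members and lists were chosen with earlier results of these data known. Named genes were every member and, from each list, the 3 tested genes with the smallest adjusted p, Rbm8a left out. Some single-gene results are left out of the text and of the list counts and are not reported here. Alternatives covered the offset, background, scaling, detection filter, array weights, left-out arrays, code runs and replicate numbers. A further 6, on the background and the block, were chosen after seeing the data.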

Additional observations from a re-analysis of the deposited data

How the results depend on the processing

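Rbm8a, chosen for this contrast, stayed higher in each of the 32 settings that included it. It was at 7.58 without scaling between arrays, 6.48 on the deposited log2 values and 16.4 percentage points on percentile ranks. Settings limited to probes detected on all 12 arrays left it out. On percentile ranks dimmer genes had larger differences, such as Smg9 (27.95), Smg6 (25.65) and LOC499250 (18.37), which passed the filter through their Staufen2 arrays. Rbm8a lay at percentiles 99.5 to 99.7 on Staufen2 arrays, near the end of the scale, so these sizes cannot be compared with its own. On preimmune replicate 6, which did not detect it, Rbm8a lay at percentile 50.3, and its group medians differed by 8.98 percentage points. The sign of the difference of several other genes changed with the scaling. Without scaling Magoh was at 2.42, Upf1 at 2.86, Cwc22 at 1.15, Thoc7 at 3.42, Lsm3 at 3.02, Lsm4 at 3.29 and Exosc5 at 1.78, and on the deposited log2 values at 1.49, 1.80, 0.60, 2.96, 2.58, 2.50 and 1.07. With median centring Magoh was at -0.41, Upf1 at 0.037, Casc3 at -1.57, Smg6 at -1.31, Smg9 at -0.51, Thoc7 at 0.59, Parn at -0.16, Lsm3 at 0.20, Lsm4 at 0.47, Xrn1 at -0.18 and Dis3 at -0.83. With median centring and the background from all detection p-values, added after seeing the data, these were -0.17, 0.14, -0.57, -0.53, -0.30, 0.81, -0.10, 0.41, 0.73, -0.19 and -0.39. The median difference of all tested probes was 0.32 in the main setting, 2.71 without scaling and -0.12 with median centring.

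Magoh changed sign in many settings, at -0.071 with an offset of 50, -1.11 after background subtraction without preimmune replicates 2 and 6, -0.97 with array weights, -0.97 without those replicates, and -0.43 in the first code run. Under the other background versions it was -0.27 with all detection p-values, -0.23 with a first rule that left out 131 probes, -0.020 without detection p-values and -0.33 with all detection p-values and normalization over the tested probes alone, where Casc3 was at -0.048 and Smg6 at -0.026. Over these 4 versions Rbm8a lay between 3.87 and 3.99. Casc3 lost its call without a detection filter (0.41) and in the second code run (0.34). Leaving out 1 array at a time, Magoh ran from -0.35 to 0.33 and Upf1 from -0.42 to 0.032. Smg8 was at -0.49 after background subtraction without preimmune replicates 2 and 6 (called lower, adjusted p = 0.0172), -0.42 without those replicates, -0.28 with array weights and -0.00036 with normalization over the tested probes alone. The causes were not tested.

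In the replicate block over the 10 arrays numbered 1 to 5, Magoh was at -0.31, the same as on those arrays without the block (-0.31), and 2818 probes were higher and 1765 lower, against 2779 and 1740 without it. The block changed no member's call, and a block by neighbouring array codes was not run. Of these 5 numbers 3 had their Staufen2 array correlate best with the preimmune array of the same number.

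The count of probes called higher, 3001, was 8838 without scaling, 8904 on the deposited values, 472 and 1195 after background subtraction over 12 and 10 arrays, 1956 on percentile ranks, 266 over probes detected on all 12 arrays and 1134 in the second code run. The count called lower, 1543, was 0 both without scaling and on the deposited values (limma, with 8843 and 8908 probes at an unadjusted p under 0.05), 3600 with median centring and 3784 with its added version, 729 after background subtraction over 12 arrays, 2435 without a filter, 1012 over probes detected on all 12 arrays, 2793 with array weights, 2350 without preimmune replicates 2 and 6, and 76 in the second code run. Upf2, Upf3a and the preimmune values of Casc3 are limited by signal over background.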

Other observations

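Cnot11, a subunit of the CCR4-NOT deadenylase, and Mtrex, the helicase that feeds the nuclear exosome, had the lowest normalized differences of the lists and were named after their values were seen. Cnot11 was at -2.66 ± 0.48 (SE; limma, adjusted p = 0.000364) with raw signals of 116 to 150 on Staufen2 arrays and 99.1 to 122 on preimmune arrays. Mtrex was at -2.77 ± 0.53 (SE; limma, adjusted p = 0.000593) with raw signals of 109 to 133 on Staufen2 arrays and 101 to 117 on preimmune arrays. Both were detected on all 12 arrays, preimmune replicates 2 and 6 included. Without scaling they were at 0.34 (adjusted p = 0.0849) and 0.10 (adjusted p = 0.531).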
